A study of Mus musculus with 8 samples.

Results

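The genes described here are 36 genes of T cells and cytotoxic lymphocytes, chosen by symbol from the 24123 genes measured in whole mouse islets. They cover the T cell receptor (TCR)-CD3 complex, the CD4 and CD8 coreceptors, surface receptors, the kinases and adaptors that act next to the receptor, genes of naive T cells, IL-2 receptor chains, genes of regulatory and helper T cells, and cytotoxic genes. All 36 were in the matrix. The list was not chosen by a threshold on the values, but it was drawn up when lymphocyte RNA was already known to be high in part of these libraries.

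T cells recognise peptides on MHC molecules through the TCR, which signals through the CD3 chains. The kinase LCK, held near the receptor by CD4 or CD8, phosphorylates these chains, ZAP-70 docks on them, and the adaptor LAT carries the signal on. Naive T cells, which circulate through lymph nodes and the spleen, use TCF1 (encoded by *Tcf7*), LEF1 and the IL-7 receptor. Regulatory T cells depend on FOXP3, and cytotoxic T cells and natural killer (NK) cells kill with perforin and granzymes. T cells are the cells that destroy β cells in autoimmune diabetes, whereas the *Irs2*-null model is one of insulin resistance with β cell failure. Pancreatic lymph nodes lie within and beside the pancreas, and islets are collected from the digested organ.

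Polyadenylated RNA was sequenced from islets of adult male mice in 8 libraries. The 3 Control libraries (numbered 1, 3 and 4) were *Irs2*+/+;*Cdk4*-wt/wt, the 3 Diabetic libraries (1, 2 and 3) *Irs2*-/-;*Cdk4*-wt/wt and the 2 Rescue libraries *Irs2*-/-;*Cdk4*-R24C/R24C. IRS2 is an adaptor of the insulin and IGF1 receptors, and the R24C form of the cell cycle kinase CDK4 resists its INK4 inhibitors. Both alleles were carried in every tissue, immune cells included, so an effect in islet cells and one in lymphocytes cannot be told apart, and islets of *Irs2*+/+ mice with R24C were not analysed here. Islets were freed with collagenase, separated on Ficoll, picked by hand and frozen without a sort, and the labels do not say whether a library came from 1 mouse or several. The comparison of Diabetic with Control asks which transcripts differ in diabetic islets, and that of Rescue with Diabetic which differ when the mutant kinase is present on the *Irs2*-null background.

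The libraries held 10.3 to 14.3 M reads in genes. For a gene at 0 reads in a library, an expected count of up to 3 was allowed for. The endocrine genes were the dominant RNA in every library, with *Ins2* from 54226 to 106702 RPKM (a read count divided by gene length and library depth). Gene-level *Irs2* was 5.14 to 11.0 RPKM in Control, 21.98 to 36.3 in Diabetic and 7.15 and 16.3 in Rescue. This sum over the gene does not separate the deleted part of the transcript from the rest and does not check the labels. RNAs retained in the nucleus split the libraries within genotypes. *Firre*, a long non-coding RNA, was 28.5, 22.8 and 0.230 RPKM in Control, 21.4, 0.180 and 0.265 in Diabetic, and 14.0 and 14.2 in Rescue. *Clk1*, encoding a splicing kinase, had levels of 17.1, 16.6 and 2.06 RPKM in Control, 16.4, 1.79 and 1.84 in Diabetic, and 20.8 and 20.5 in Rescue. Control 4, Diabetic 2 and Diabetic 3 thus stood apart as low, and both Rescue libraries were high. *Malat1* took another order, at 554, 180 and 89.3 RPKM in Control, 248, 110 and 97.95 in Diabetic, and 1395 and 261 in Rescue. The part of this split in the T cell values was not tested, and the counts below are given also without the 3 low libraries. The depth and sums are for single libraries, and all p-values measure the spread between libraries only.

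Both Rescue libraries carried T cell and cytotoxic RNA at levels well above those of the other 6. Summed over 35 of the genes (all but *Skap1*, an adaptor gene that behaved differently), the level was 328 and 370 RPKM in Rescue 1 and 2. It was 29.3, 39.0 and 2.55 RPKM in Diabetic 1, 2 and 3, and 2.22, 5.84 and 1.86 RPKM in Control 1, 3 and 4. The Diabetic genotype was thus split: Diabetic 1 and 2 lay between the other genotypes and Diabetic 3 lay within the Control range. The same sums in reads were 11833 and 13494 in Rescue, 1222, 1245 and 97 in Diabetic, and 97, 229 and 88 in Control. In bulk RNA, more T cells and more RNA per T cell cannot be told apart.

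**Figure D1:**
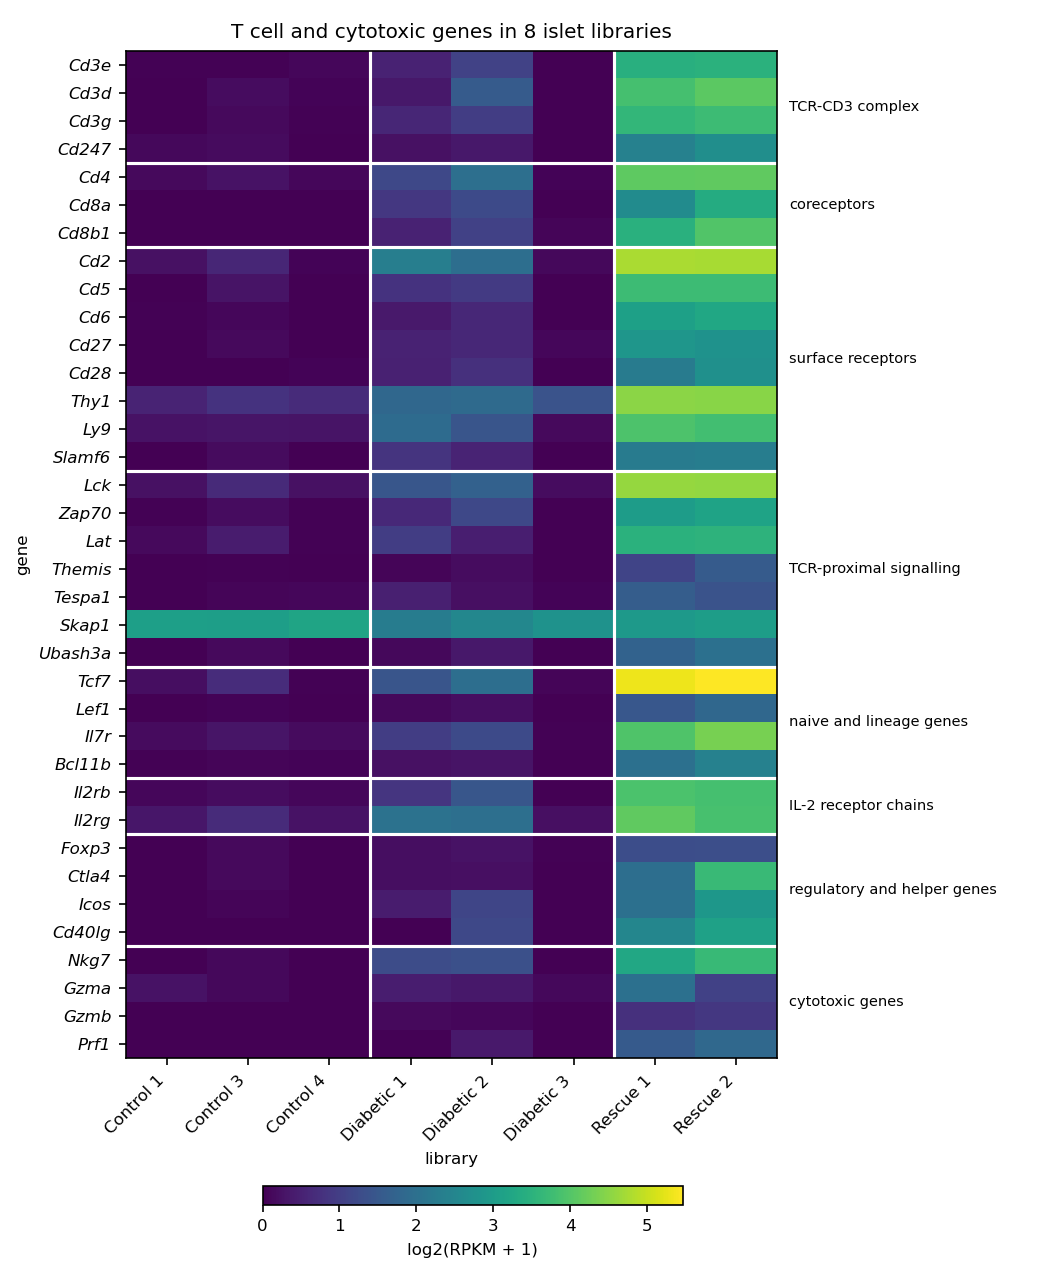
Heat map of the 36 genes (rows, by role) in the 8 libraries (columns), coloured by log2(RPKM + 1). The Rescue columns are bright for nearly all genes, Diabetic 1 and 2 are intermediate, and Diabetic 3 resembles the Control columns, while *Skap1* is at similar levels throughout.

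Differences were tested with limma on log2(RPKM + 1) over the 12594 genes that reached 1 RPKM in 2 or more libraries, and a gene was called at an adjusted p under 0.05. Of the 36 genes 35 passed this filter, and 26 of them passed only because of the Rescue libraries. These 26 had to be higher in Rescue, so their count is a description and not support for the difference. The same holds for genes of the further lists below that passed only because of the Rescue libraries. *Gzmb* did not pass. In Rescue against Diabetic 34 of the 35 tested genes were higher, where 24% of all tested genes were called higher, and the gene not called was *Skap1*. In Rescue against Control the same 34 were higher, beside 18.0% of those tested. The counts of the further lists below are to be read beside these same shares. In Diabetic against Control only *Thy1* was higher, beside 1.53% of all genes, and no member was lower, beside 2.44%. At an unadjusted p under 0.05, 3 members were higher and 1 was lower there, beside 997 and 1942 of all 12594 genes. Without the 3 libraries low in nuclear RNAs (Control 4, Diabetic 2 and 3) 32 members were higher in Rescue against Diabetic, beside 7.46% of all genes, with *Ctla4*, *Gzma* and *Skap1* not called, and 34 against Control, beside 15.0%. In Diabetic against Control *Cd2*, *Il2rg* and *Ly9* were then higher, beside 1.93%, and *Thy1* was not called (adjusted p = 0.0623), with Diabetic 1 alone left and assumed to vary like the other libraries.

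The median log2 difference over the 35 tested genes was 2.57 in Rescue against Diabetic, 3.01 in Rescue against Control and 0.47 in Diabetic against Control. Over all tested genes these medians were 0.24, 0.08 and -0.12. The 3 comparisons share libraries and are not independent of one another. Without any filter all 36 genes could be tested, and 35 were higher in Rescue against Diabetic (19.5% of 18126 genes) and 35 against Control (16.6%), *Gzmb* now among them. All 36 genes were higher in both Rescue libraries than in every Diabetic library, which held for 42.0% of the filtered genes, and for 35 the Rescue libraries lay above every Control library (33.1%). Diabetic lay wholly above Control for *Cd8b1* and *Thy1* (10.2%). Scaled by either method below, 35 of the 36 lay above every Diabetic library, *Skap1* being the exception. The share of all genes was not computed after scaling, and the 42.0% is for unscaled values. Scaling of the libraries moved the median of all genes between Rescue and Diabetic from 0.24 to 0.03 (trimmed mean of M-values, TMM) or 0.04 (median of ratios) and turned the split of calls over all genes from 3022 higher and 730 lower to 2047 and 1781 or 2124 and 1674. The 34 calls among the T cell genes stood under both, with a median of 2.39 under TMM.

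**Figure D2:**
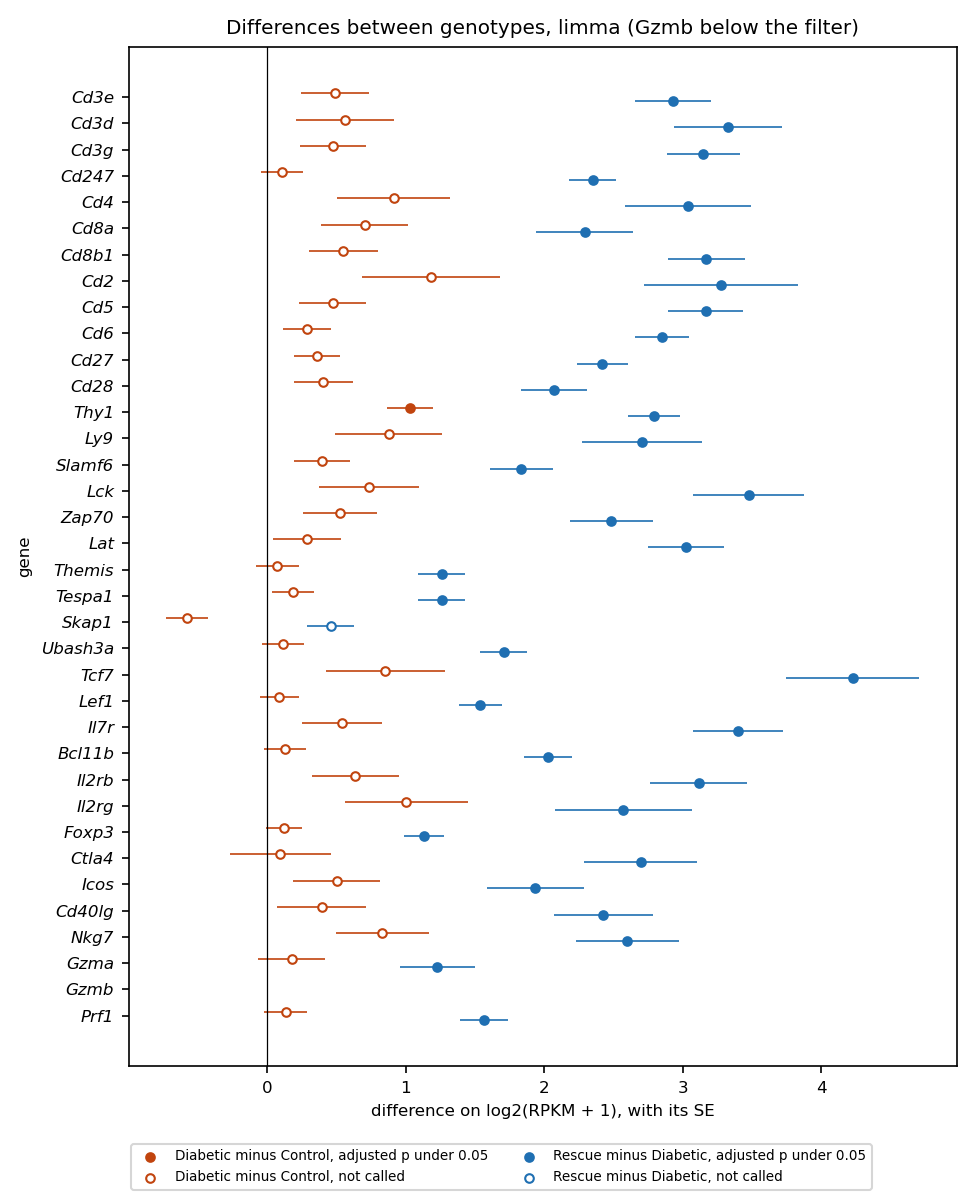
Log2 differences (points) with their standard errors (lines) for the tested genes in Diabetic against Control (orange) and Rescue against Diabetic (blue), filled where the adjusted p is under 0.05. All blue points but *Skap1* are filled, and *Thy1* is the only filled orange point.

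The CD3 chains, which occur almost only in T cells and carry the signal of the TCR, were higher in Rescue. *Cd3e* was 0.0162, 0.0192 and 0.0689 RPKM in Control, 0.444, 1.12 and 0 in Diabetic, and 9.86 and 10.3 in Rescue. *Cd3d* was 0, 0.130 and 0.0387 RPKM in Control, 0.279, 1.95 and 0 in Diabetic, and 13.3 and 16.0 in Rescue. *Cd3g* was 0, 0.0959 and 0.0215 RPKM in Control, 0.509, 0.995 and 0 in Diabetic, and 11.3 and 12.4 in Rescue. The 3 genes together had 1, 8 and 6 reads in Control, 55, 122 and 0 in Diabetic, and 1226 and 1352 in Rescue. Diabetic 3 therefore had no CD3 read, and Diabetic 1 and 2 had more than any Control library.

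On the log2 scale, Rescue exceeded Diabetic by 2.93 for *Cd3e* (SE 0.28, adjusted p = 0.00104), 3.33 for *Cd3d* (SE 0.39, adjusted p = 0.00146) and 3.15 for *Cd3g* (SE 0.26, adjusted p = 0.000868). The pseudocount compresses these differences. As a ratio of mean RPKM, *Cd3e* was 19.3-fold higher in Rescue than in Diabetic (95% counting interval 15.3 to 24.8) and 289-fold higher than in Control (133 to 790, on 6 Control reads). These intervals cover counting error only. *Cd247*, the ζ chain, which NK cells also express, was lower than the other chains per length, at 4.29 and 5.52 RPKM in Rescue and at most 0.279 elsewhere, with a log2 difference of 2.35 from Diabetic (SE 0.17, adjusted p = 0.000868).

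*Cd3g*, *Cd3d* and *Cd3e* are neighbours within 40.1 kb of chromosome 9 (GRCm38, 44969572 to 45009627), and *Cd3g* and *Cd3d* are transcribed away from each other from starts 1355 bp apart. Since these neighbours moved together, the 150 bases before each start are shown from RefSeq (GRCm38.p6), 5′ to 3′ on the strand of the gene. They lie at chr9:45009612-45009761 (minus strand, *Cd3e*), chr9:44981636-44981785 (plus strand, *Cd3d*) and chr9:44980432-44980581 (minus strand, *Cd3g*). Capitals mark matches to 4 short core motifs of factors active in T cells, searched on both strands: AGGAAG (ETS), TGTGGT (RUNX), CTTTGA (TCF1 and LEF1) and CAGGTG (E proteins).
Cd3e: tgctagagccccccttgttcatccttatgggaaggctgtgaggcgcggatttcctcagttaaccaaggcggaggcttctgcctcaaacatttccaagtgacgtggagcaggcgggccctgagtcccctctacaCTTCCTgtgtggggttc
Cd3d: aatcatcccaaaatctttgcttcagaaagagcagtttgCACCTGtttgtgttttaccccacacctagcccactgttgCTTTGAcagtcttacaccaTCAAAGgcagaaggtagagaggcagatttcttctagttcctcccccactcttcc
Cd3g: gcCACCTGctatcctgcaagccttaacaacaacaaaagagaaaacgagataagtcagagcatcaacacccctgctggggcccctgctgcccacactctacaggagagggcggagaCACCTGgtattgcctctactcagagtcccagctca

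*Cd3e* thus shows an ETS core next to its start, *Cd3d* an E protein core with 2 TCF cores, and *Cd3g* 2 E protein cores, all E protein cores read on the other strand as CACCTG. Promoters of 300 bases (250 before and 50 after the start) were found in RefSeq for 24 of the 36 genes. In them the ETS core occurred in 13 genes (54.2%, against 35.1% of the 27025 genes with a promoter in the table), the E protein core in 10 (41.7% against 20%), the RUNX core in 8 (33.3% against 16.9%) and the TCF core in 6 (25.0% against 16.2%). Overlapping matches of different motifs were counted for each. The 8 genes with a RUNX core were *Gzma*, *Gzmb*, *Il2rg*, *Il7r*, *Lat*, *Lck*, *Nkg7* and *Prf1*. These shares are descriptions of letters in a window and do not show that a factor binds.

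The coreceptors CD4, of helper and regulatory T cells, and CD8, of cytotoxic T cells, were both represented. *Cd4* was 0.0985, 0.194 and 0.0697 RPKM in Control, 1.27, 2.97 and 0.0387 in Diabetic, and 16.2 and 16.5 in Rescue, whose level exceeded that of Diabetic by 3.04 on the log2 scale (SE 0.45, adjusted p = 0.00270). *Cd8a* was 0 in all Control libraries, 0.856, 1.33 and 0 RPKM in Diabetic, and 5.20 and 9.24 in Rescue, a log2 difference of 2.29 from Diabetic (SE 0.35, adjusted p = 0.00290). *Cd8b1*, the CD8 β chain of conventional cytotoxic T cells, was 0 in all Control libraries, 0.439, 1.07 and 0.0526 RPKM in Diabetic, and 10.03 and 14.7 in Rescue, a difference of 3.17 (SE 0.28, adjusted p = 0.000982). Rescue was at least 112-fold higher than Control for *Cd8a* and at least 78.1-fold for *Cd8b1*, taking 3 reads per Control library as the floor. *Cd8b1* did not overlap between Diabetic and Control, but its Diabetic 3 value was 1 read and its adjusted p was 0.230.

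*Cd4* and *Cd8a* are also transcribed in subsets of mouse dendritic cells, whereas *Cd8b1* marks conventional T cells. Over 9 dendritic cell genes the summed RPKM was 1.67 to 1.99 in Control, 8.08, 7.61 and 1.41 in Diabetic, and 23.5 and 31.0 in Rescue, and 8 of the 8 tested were higher in Rescue against Diabetic. All of the tested genes but *Itgax* passed the filter only because of the Rescue libraries. The part of dendritic cells in the coreceptor values was not tested.

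The 8 surface receptor genes were all higher in Rescue against Diabetic, by 1.84 to 3.28 on the log2 scale. *Cd2*, an adhesion receptor of T cells and NK cells that mouse B cells carry too, was the highest of them per length, at 26.1 and 25.9 RPKM in Rescue. It was 4.03, 2.94 and 0.0895 RPKM in Diabetic and 0.190, 0.495 and 0.0403 in Control (Rescue against Diabetic 3.28, SE 0.56, adjusted p = 0.00414). *Cd5* and *Cd6*, inhibitory scavenger receptors of T cells encoded within 112.9 kb on chromosome 19, were 12.4 and 12.3 RPKM and 7.57 and 8.57 RPKM in Rescue, and at most 0.899 and 0.519 elsewhere. The costimulatory receptor genes *Cd27* and *Cd28* were 6.35 and 5.84 RPKM and 3.81 and 5.64 RPKM in Rescue, and at most 0.519 and 0.683 elsewhere. *Ly9* and *Slamf6*, receptors of the SLAM family shared by T and B cells, were 14.2 and 13.0 RPKM and 3.81 and 3.96 RPKM in Rescue. They were 2.76, 1.71 and 0.0943 RPKM and 0.755, 0.455 and 0.00720 RPKM in Diabetic, so that Diabetic 1 exceeded Diabetic 2 for both.

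*Thy1* was the 1 gene called in Diabetic against Control. It encodes a glycoprotein of mouse T cells that neurons and fibroblasts also carry. Its level was 0.464, 0.733 and 0.586 RPKM in Control (21, 28 and 25 reads), 2.54, 2.70 and 1.64 in Diabetic (105, 87 and 63 reads), and 21.7 and 21.4 in Rescue (788 and 779 reads). All Diabetic libraries were above all Control libraries, and Diabetic 3 kept 63 *Thy1* reads where it had none of the CD3 chains. Diabetic exceeded Control by 1.03 on the log2 scale (SE 0.17, adjusted p = 0.0195), and Rescue exceeded Diabetic by 2.79 (SE 0.19, adjusted p = 0.000819). The Diabetic call was lost on leaving out Control 1 (adjusted p = 0.0787), Control 3 (0.0850), Control 4 (0.0639) or Diabetic 2 (0.108).

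**Figure D3:**
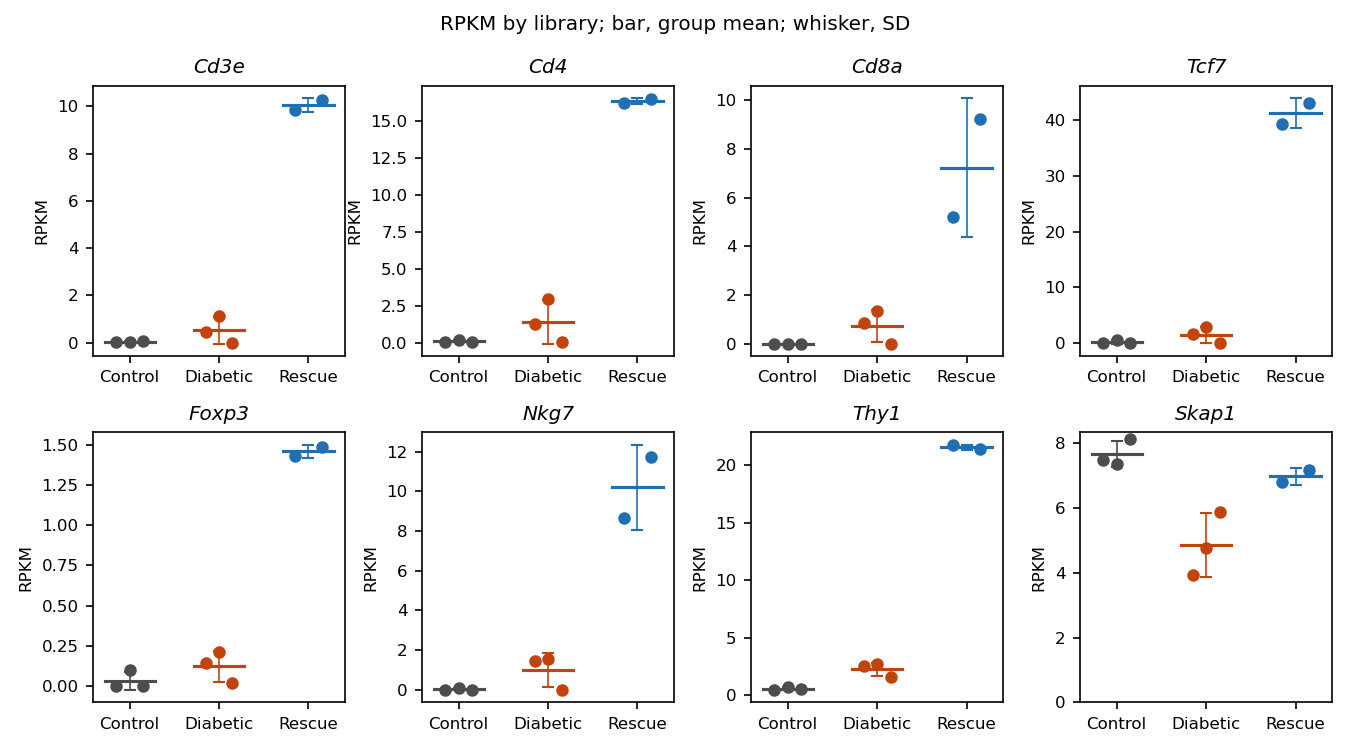
RPKM of 8 genes in each library (points) by genotype, with the group mean (horizontal bar) and SD (whisker; n = 3, 3 and 2). The Rescue points stand apart from all others in every panel but that of *Skap1*, in which the Diabetic points are the lowest, and Diabetic 3 is near 0 in every panel but those of *Thy1* and *Skap1*.

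Of the 7 genes that act next to the TCR, 6 were higher in Rescue against both other genotypes. *Lck*, the kinase that starts the signal, was 0.181, 0.562 and 0.192 RPKM in Control, 1.76, 2.25 and 0.133 in Diabetic, and 23.2 and 23.0 in Rescue, a difference of 3.48 from Diabetic (SE 0.40, adjusted p = 0.00142). *Zap70*, the kinase that binds the phosphorylated chains, was 0.557, 1.27 and 0 RPKM in Diabetic and 7.12 and 7.96 in Rescue (2.48, SE 0.30, adjusted p = 0.00148). *Lat*, the membrane adaptor, was 0.994, 0.370 and 0 RPKM in Diabetic and 10.3 and 10.5 in Rescue (3.03, SE 0.27, adjusted p = 0.00104). The genes with lower levels were *Themis* and *Tespa1*, known for their part in thymocyte selection, and *Ubash3a*, a phosphatase-family gene that dampens TCR signals. They were 1.17 and 1.97, 2.06 and 1.65, and 2.31 and 3.02 RPKM in Rescue, and below 0.4 in all other libraries.

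*Skap1*, an adaptor that links the TCR to integrins, did not follow the other genes. It was 7.50, 7.36 and 8.12 RPKM in Control, 3.93, 4.76 and 5.89 in Diabetic, and 6.80 and 7.17 in Rescue. In RPKM its order was Control above Rescue above Diabetic. After TMM scaling the order of the libraries was lost, with Diabetic 3 at 6.94 above Rescue 1 and 2 at 6.34 and 6.16. *Skap1* was well above 0 in Diabetic 3, a library with no CD3 read. Its log2 value in Diabetic differed from Control by -0.58 (SE 0.15, adjusted p = 0.0719), Rescue minus Diabetic was 0.46 (SE 0.17, adjusted p = 0.0709) and Rescue minus Control -0.12 (SE 0.17, adjusted p = 0.658). Without Diabetic 3 the first and the second passed the threshold (adjusted p = 0.0339 and 0.0406). Under TMM the second fell to 0.22 (adjusted p = 0.447), under median-of-ratios scaling to 0.24 (adjusted p = 0.402), and with voom it was 0.59 (adjusted p = 0.0446). The exons of *Skap1* overlap those of *2010300F17Rik* on the opposite strand in GENCODE M21, and it is not stated whether the counting used strand, so reads of the 2 genes cannot be told apart.

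The genes of naive T cells and of the T lineage held the highest single value. *Tcf7* was 39.2 and 43.0 RPKM in Rescue, 1.71, 2.94 and 0.0594 in Diabetic, and 0.151, 0.627 and 0.0268 in Control. Rescue exceeded Diabetic by 4.23 on the log2 scale (SE 0.48, adjusted p = 0.00139) and Control by 5.08 (SE 0.48, adjusted p = 0.000401), each the largest of the 35 tested genes. The mean of 41.1 ± 2.70 RPKM (SD, n = 2) exceeded the next gene of the list per length, *Cd2* at 26.0 ± 0.116. *Il7r*, the receptor for the survival cytokine IL-7, was 14.5 and 19.3 RPKM in Rescue, 0.993, 1.33 and 0.0243 in Diabetic, and 0.124, 0.244 and 0.109 in Control (3.40 against Diabetic, SE 0.32, adjusted p = 0.00104). *Lef1*, a relative of TCF1, was 1.81 and 2.52 RPKM in Rescue and at most 0.159 elsewhere. *Bcl11b*, a transcription factor that fixes T cell identity, was 3.05 and 4.31 RPKM in Rescue and at most 0.229 elsewhere.

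Of 8 genes for the homing and circulation of naive T cells, which other cells also use, 5 were higher in Rescue against each of the other genotypes and 1 was higher in Diabetic against Control. *S1pr1*, the receptor by which lymphocytes leave lymph nodes and which endothelium shares, was 3.15 to 3.88 RPKM in Control, 7.27, 7.78 and 5.22 in Diabetic, and 19.99 and 24.6 in Rescue. *Klf2*, which drives *S1pr1* in T cells and is also high in endothelium, was 2.81 to 5.85 RPKM in Control, 11.1, 8.56 and 5.40 in Diabetic, and 32.6 and 28.2 in Rescue. *Ly6c1* overlapped between the genotypes, at 14.3 to 30.7 RPKM. The recombination genes *Rag1* and *Rag2* of immature thymocytes had no read in any library.

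The IL-2 receptor chains were likewise higher in Rescue. *Il2rb*, the β chain of T and NK cells, was 14.1 and 13.4 RPKM in Rescue and 0.806, 1.74 and 0 in Diabetic (3.11, SE 0.35, adjusted p = 0.00139). *Il2rg*, the common γ chain of all lymphocytes, was 16.4 and 13.7 RPKM in Rescue and 3.15, 2.998 and 0.163 in Diabetic (2.57, SE 0.50, adjusted p = 0.00684). Its call was lost without Rescue 1 (adjusted p = 0.0628).

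The 4 regulatory and helper genes were higher in Rescue, at mean levels of 1.46 to 7.45 RPKM. *Foxp3*, the master factor of regulatory T cells, was 1.43 and 1.49 RPKM in Rescue (69 and 72 reads), 0.145, 0.210 and 0.0195 in Diabetic (8, 9 and 1 reads), and 0, 0.0982 and 0 in Control (5 reads in Control 3). Its log2 difference from Diabetic was 1.13 (SE 0.15, adjusted p = 0.00172). Exons of *Foxp3* overlap those of *Ccdc22*, *Ppp1r3f*, *Gm36995* and *Flicr*, and with strand not stated its reads may be shared with them.

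*Ctla4*, the inhibitory receptor that regulatory and activated T cells carry, was 2.94 and 11.95 RPKM in Rescue, and *Icos*, a costimulatory receptor of activated T cells, was 3.06 and 6.46. In Diabetic *Ctla4* was 0.155, 0.160 and 0 RPKM and *Icos* was 0.338, 1.22 and 0. The difference from Diabetic was 2.70 for *Ctla4* (SE 0.41, adjusted p = 0.00281) and 1.94 for *Icos* (SE 0.35, adjusted p = 0.00530). *Cd28*, *Ctla4* and *Icos* are neighbours within 283.5 kb of chromosome 1 (GRCm38, 60716800 to 61000320), and yet the ratio of Rescue 2 to Rescue 1 was 1.48 for *Cd28* (95% counting interval 1.27 to 1.73), 4.06 for *Ctla4* (3.19 to 5.23) and 2.11 for *Icos* (1.70 to 2.63). *Cd40lg*, the helper signal to B cells, was 4.69 and 7.78 RPKM in Rescue and had 17 reads in Diabetic, all of them in Diabetic 2 (2.43, SE 0.36, adjusted p = 0.00258).

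Of 10 other genes used for regulatory T cells 8 were tested, of which 6 were higher in Rescue against Diabetic and 7 against Control. The highest of them, *Capg*, an actin-capping gene that myeloid cells also express, was 0.340 to 1.43 RPKM in Control, 5.497, 3.86 and 0.863 in Diabetic, and 17.9 and 17.4 in Rescue. *Izumo1r*, encoding folate receptor 4 of regulatory T cells, was 0.437, 0.601 and 0 RPKM in Diabetic and 5.31 and 4.94 in Rescue. All 6 inhibitory receptor genes were higher in Rescue against both genotypes, with *Tigit* at 6.52 and 10.5 RPKM and *Lag3* at 5.88 and 5.63 in Rescue. Of these all but *Btla* passed the filter only because of the Rescue libraries. Of 8 helper lineage genes 6 were tested and 5 were higher against each genotype, among them the chemokine receptor genes *Cxcr5* (13.6 and 13.9 RPKM in Rescue), *Cxcr3* (8.83 and 8.66) and *Ccr6* (6.48 and 6.87), of which *Cxcr5* and *Ccr6* are also B cell genes.

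The effector genes of killing were among the lowest of the 36 in Rescue. *Prf1*, perforin, was 1.92 and 2.61 RPKM in Rescue (60 and 82 reads), 0.0280, 0.288 and 0 in Diabetic (1, 8 and 0 reads), and 0 in all Control libraries (1.56 against Diabetic, SE 0.17, adjusted p = 0.00130). *Gzma*, granzyme A, was 3.04 and 1.06 RPKM in Rescue (37 and 13 reads), 0.360, 0.277 and 0.0775 in Diabetic, and 0.197, 0.0779 and 0 in Control (1.23, SE 0.27, adjusted p = 0.0115). Its call was lost without Rescue 1 (adjusted p = 0.0642). *Gzmb*, granzyme B, was 0.690 and 0.861 RPKM in Rescue (12 and 15 reads) and had 3 reads in Diabetic and none in Control. As a ratio of mean RPKM it was 14.1-fold higher in Rescue than in Diabetic, with a counting interval of 4.32 to 72.4.

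*Nkg7*, a granule membrane gene of cytotoxic cells, was far higher than the killing genes per length. It was 8.68 and 11.7 RPKM in Rescue, 1.43, 1.53 and 0 in Diabetic, and 0, 0.0857 and 0 in Control, a difference of 2.60 from Diabetic (SE 0.37, adjusted p = 0.00236). Of 16 other cytotoxic and NK genes 6 passed the filter, of which 5 were higher in Rescue against Diabetic and 6 against Control. All of these but *Ccl5* passed only because of the Rescue libraries, so these counts are a description and not support. The chemokine gene *Ccl5* was the highest, at 17.3 and 30.6 RPKM in Rescue, 2.72, 1.74 and 0.325 in Diabetic, and 0.0690 to 0.408 in Control. *Klrd1*, encoding CD94 of NK and activated cytotoxic T cells, was 3.87 and 4.18 RPKM in Rescue, 0.339, 0.363 and 0 in Diabetic, and 0 in Control. Summed over the 16 genes, the level was 39.6 and 58.9 RPKM in Rescue, 5.25, 10.3 and 0.351 in Diabetic, and 0.265 to 0.956 in Control.

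Other genes of TCR signalling, which were not members, followed. Of 18 such genes 17 were tested, and 16 were higher in Rescue against Diabetic, 15 against Control and 1 in Diabetic against Control. *Gimap3*, a lymphocyte survival GTPase, was 0.0514 to 0.882 RPKM in Control, 7.33, 3.32 and 0.0302 in Diabetic, and 45.7 and 50.03 in Rescue. *Plcg1*, a phospholipase of many cell types, was 6.03 to 11.7 RPKM in Control, 5.69 to 6.81 in Diabetic and 11.3 and 11.1 in Rescue. The constant genes of the TCR chains were not analysed here.

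The split of the Diabetic genotype ran through nearly all of the genes. In 33 of the 36 Diabetic 1 and 2 were both above every Control library, and in 34 Diabetic 3 was within or below the Control range, the exceptions being *Thy1* and *Cd8b1*. The shares of all genes with these orders were not computed, so the counts describe the 36 genes only. In Diabetic 3, 17 of the 36 had no read, close to the 16 in Control 1 and 16 in Control 4, whereas Control 3 lacked 6. Control 3 was the highest Control library in 26 genes. Without Diabetic 3, 16 members were called higher in Diabetic against Control, beside 5.21% of all genes, and *Skap1* was called lower, beside 2.98%. The 16 were *Cd3e*, *Cd3g*, *Cd4*, *Cd8a*, *Cd2*, *Cd5*, *Thy1*, *Ly9*, *Slamf6*, *Lck*, *Zap70*, *Tcf7*, *Il7r*, *Il2rb*, *Il2rg* and *Nkg7*. The library was singled out after its values had been seen, so these calls show how far the result rests on it and are not a second test. None of the regulatory and helper genes was among them, nor *Gzma* or *Prf1*. In Rescue against Diabetic all 35 tested genes were called without Diabetic 3, beside 18.3% of all genes.

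The genes were also compared with the CD3 chains of the same library, as the RPKM of a gene over the mean RPKM of *Cd3e*, *Cd3d* and *Cd3g*. For a gene transcribed only in T cells this ratio does not depend on how much T cell RNA a library holds, and it has a counting interval but no replicate error. *Tcf7* was 4.16 times the CD3 mean in Diabetic 1 (95% counting interval 2.85 to 6.10), 2.17 in Diabetic 2 (1.62 to 2.90), 3.41 in Rescue 1 (3.15 to 3.70) and 3.34 in Rescue 2 (3.09 to 3.60). *Foxp3* was 0.353, 0.155, 0.124 and 0.115 in the same order, with overlapping intervals. *Prf1* was 0.0682, 0.213, 0.167 and 0.203, all with overlapping intervals. The *Tcf7* and *Prf1* ratios of the 2 Rescue libraries agree within counting error, and the *Tcf7* ratios of the 2 Diabetic libraries lay one above and one below, the second beyond its interval.

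Relative to CD3, Diabetic 1 differed from Rescue in more genes than Diabetic 2 did. Of 32 genes (all but the CD3 chains themselves and *Skap1*) 13 had an interval in Diabetic 1 above those of both Rescue libraries, and 3 had one in Diabetic 2 (*Cd4*, *Il2rg* and *Icos*). The 13 were *Cd4*, *Cd8a*, *Cd2*, *Cd28*, *Thy1*, *Ly9*, *Slamf6*, *Lck*, *Zap70*, *Lat*, *Tespa1*, *Il2rg* and *Nkg7*. No gene lay below both Rescue libraries in Diabetic 1, and *Lat* and *Tcf7* did in Diabetic 2. All ratios of a library share 1 denominator, which rests on 55 CD3 reads in Diabetic 1. Its counting error moves them together, so the 13 are not separate differences. *Cd4* was 3.10 and 2.20 times the CD3 mean in Diabetic 1 and 2, against 1.41 and 1.28 in Rescue. The largest ratios in Diabetic 1 were *Cd2* at 9.82 (6.98 to 13.9), against 2.17 in Diabetic 2 and 2.27 and 2.01 in Rescue, *Il2rg* at 7.68, against 2.22, 1.42 and 1.06, and *Ly9* at 6.72, against 1.27, 1.23 and 1.01. *Cd79b*, a subunit of the B cell receptor, was 64.2 times the CD3 mean in Diabetic 1 and 7.06, 7.85 and 4.19 times in Diabetic 2, Rescue 1 and Rescue 2. *Cd2*, *Il2rg*, *Ly9* and *Slamf6* are genes that B cells also transcribe, and the part of B cells in these ratios was not tested.

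**Figure D4:**
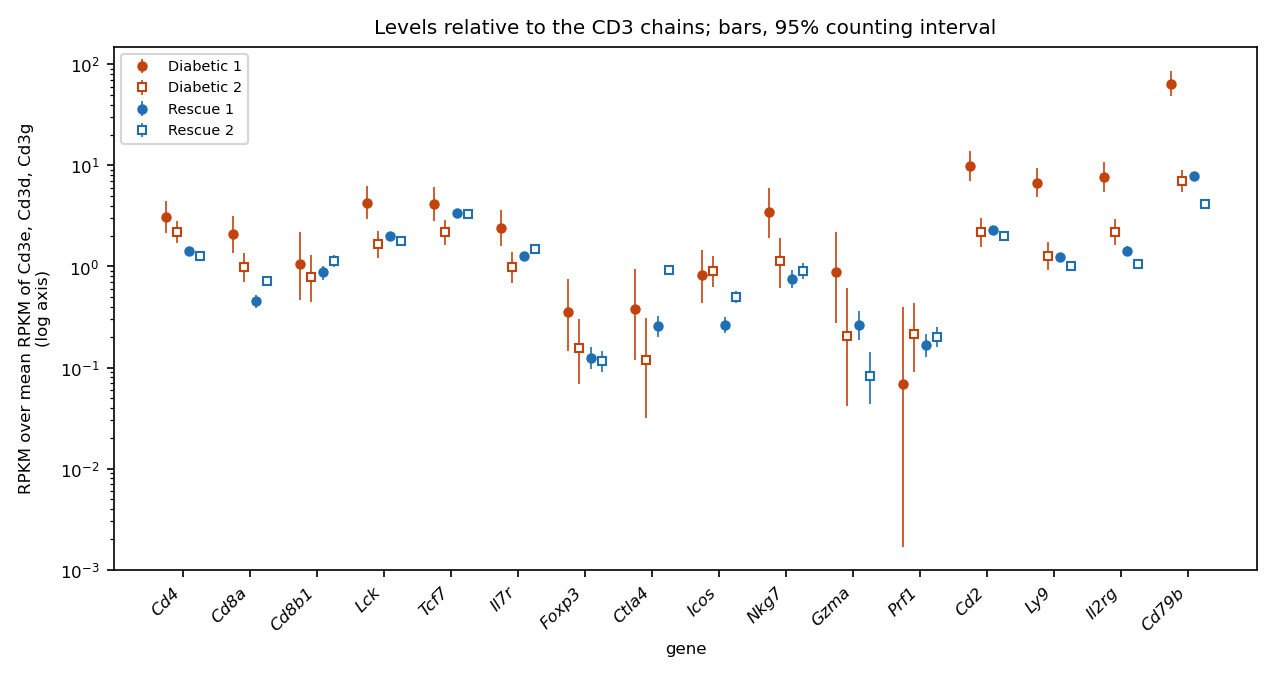
Level of 16 genes relative to the mean of *Cd3e*, *Cd3d* and *Cd3g* (log axis) in Diabetic 1 and 2 and Rescue 1 and 2, with 95% counting intervals. *Cd2*, *Ly9*, *Il2rg* and the B cell gene *Cd79b* are highest in Diabetic 1, *Tcf7* is similar in both Rescue libraries, and *Ctla4* stands out in Rescue 2; *Cd40lg* is not drawn.

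The 2 Rescue libraries were close for some of the genes and apart for others. The ratio of Rescue 2 to Rescue 1 was 1.04 for *Cd3e* (95% counting interval 0.917 to 1.18), 1.02 for *Cd4* (0.920 to 1.12) and 0.993 for *Lck* (0.900 to 1.09), but 1.20 for *Cd3d* (1.03 to 1.41) and 1.28 for *Cd247* (1.10 to 1.51). It had an interval above 1 in 14 of the 36 genes and below 1 in 2 (*Gzma* and *Il2rg*). After *Ctla4* and *Icos*, the largest were *Cd8a* at 1.78 (1.51 to 2.10), *Themis* at 1.69 (1.39 to 2.06) and *Cd40lg* at 1.66 (1.22 to 2.26). *Gzma* was at 0.350 (0.171 to 0.675). Of 6 neutrophil genes the summed RPKM was 74.8 in Rescue 2 and 1.84 in Rescue 1, and their part in these ratios was not tested.

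RNA of B cells and of lymph node tissue was also highest in Rescue, but its order within genotypes was not that of the T cell genes. Diabetic 1 exceeded Diabetic 2 in both lists, whereas the T cell sum was higher in Diabetic 2. Over 10 B cell genes the summed RPKM was 5.60, 31.2 and 5.37 in Control, 153, 39.2 and 6.36 in Diabetic, and 410 and 282 in Rescue, and all 10 were higher in Rescue against Control and 7 against Diabetic. Over 8 genes of lymph node stroma, follicles and high endothelial venules the sum was 0.267, 15.3 and 0.676 RPKM in Control, 103, 19.5 and 0.497 in Diabetic, and 172 and 232 in Rescue. Of these 5 were tested, and 5 were higher in Rescue against Control and 2 against Diabetic. *Cxcl13*, the chemokine of B cell follicles, was 125 and 94.7 RPKM in Rescue, and *Glycam1*, a ligand of L-selectin on high endothelial venules of lymph nodes, was 23.8 and 116. In Diabetic *Cxcl13* was 38.5, 16.0 and 0.339 RPKM and *Glycam1* was 48.8, 0.446 and 0. Neither was called in Rescue against Diabetic (adjusted p = 0.0949 and 0.0895). The 2 genes called there were *Ccl19*, at 1.14 and 1.43 RPKM in Rescue, and *Pdpn*, at 4.05 and 3.90. *Ccl21a*, also of this list, had 1 read in Rescue 1 and none in any other library. Control 3, the Control library with the most T cell RNA, was also the highest of its genotype in both lists. Diabetic 3 was at the low Control level in both. The part of lymph node tissue in the T cell values was not tested.

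Lists of further cells followed several orders. Over 6 genes common to leukocytes the sum was 6.01 to 16.0 RPKM in Control, 78.3, 46.2 and 5.09 in Diabetic, and 382 and 351 in Rescue, and all 6 were higher in Rescue against both. Of 10 macrophage genes, with sums of 76.6 to 130 in Control, 110 to 266 in Diabetic and 688 and 595 in Rescue, 8 were tested and 5 were higher in Rescue against Diabetic. Of 7 plasma cell genes 6 were tested and 3 were higher in Rescue against Diabetic. Of 6 endothelial genes 2 were higher in Rescue against Diabetic and 4 against Control. The acinar genes followed another order, with sums of 101 to 118 RPKM in Control, 277, 369 and 38.9 in Diabetic, and 154 and 32.4 in Rescue, and none was called in any comparison. Diabetic 1 and 2 were thus the highest libraries for acinar RNA and lay between the genotypes for T cell RNA. Of 7 islet endocrine genes 4 were lower and none higher in Rescue against Diabetic, where 730 of all 12594 genes were called lower.

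**Figure D5:**
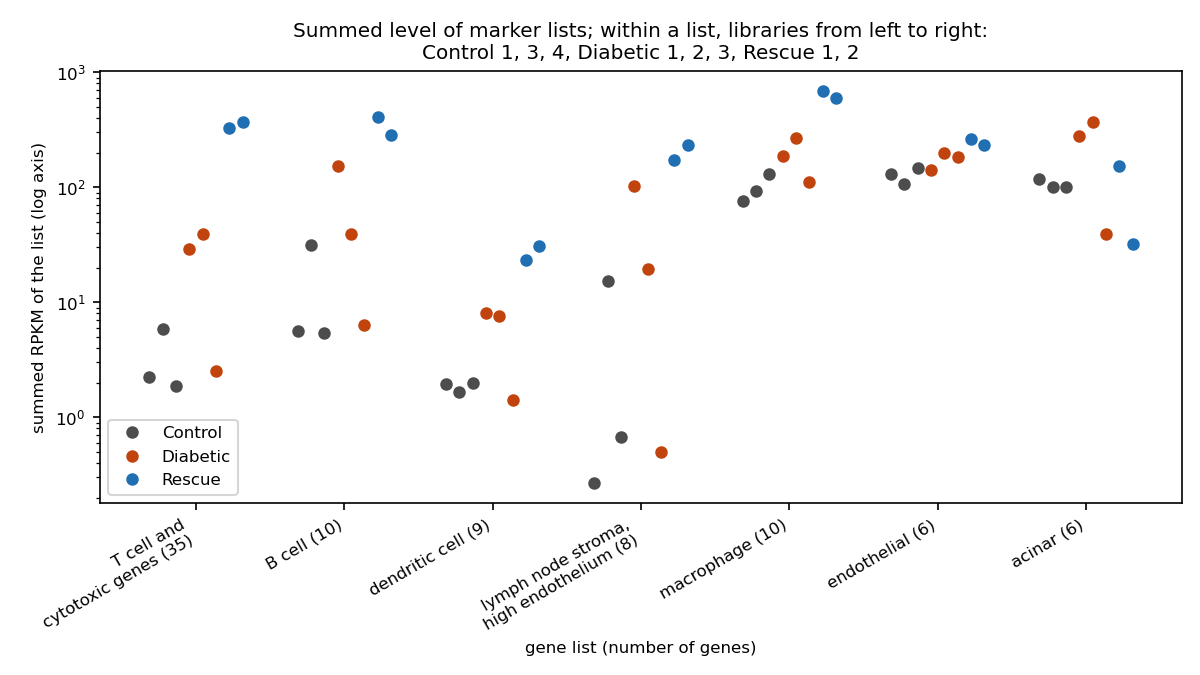
Summed RPKM (log axis) of marker lists in each library, coloured by genotype, the number of genes in parentheses. In the T cell, B cell, dendritic cell and lymph node lists Rescue is highest and Diabetic 3 lies among or below the Control libraries, whereas the acinar list is highest in Diabetic 1 and 2.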

How the data were processed

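The authors sequenced polyadenylated islet RNA as paired reads, aligned it with STAR to mm10, counted it with HTSeq and normalised it with edgeR, and deposited 1 RPKM value per gene and library. For tool versions, annotation and strandedness the sources used here give nothing. The RPKM values fall on steps of 1 read, and whole reads were recovered for 100% of 18126 genes above 0 (tolerance 0.001 reads), which gave depth and counting intervals (95%). Gene lengths implied by these steps stood at 1.04 to 1.05 times the GENCODE M21 exonic length for 30 of the 36 genes. For *Cd5*, *Cd6*, *Ubash3a*, *Il7r*, *Il2rb* and *Foxp3* they were shorter, so levels of these 6 genes rest on another gene model.

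The 12594 genes that reached 1 RPKM in 2 or more libraries were fitted with limma 3.58.1 (R 4.3.3) on log2(RPKM + 1), 1 mean per genotype, empirical Bayes with trend, 2-sided, Benjamini-Hochberg over all tested genes. The script was tested on simulated data. In total 17 other settings chosen beforehand were run. Limma voom on recovered reads and a fit without the 3 libraries low in nuclear RNAs were added after seeing the data. All 36 genes were described, and of each other list at most the 4 highest genes, besides genes at 0 in every library and *Ccl19* and *Ccl21a*. The members and lists were chosen with earlier results of these data known. Reads of 10 members share exons with another gene, 6 of them on the opposite strand. The labels do not say whether the replicate numbers pair the libraries.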

Additional observations from a re-analysis of the deposited data

How the results depend on the processing

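The counts of called T cell genes in Rescue against Diabetic (34) and against Control (34) stood under both scalings, both smaller pseudocounts, the 2-group fit, robust empirical Bayes and the replicate block. In these settings 1985 to 3009 and 1199 to 2256 of all 12594 genes were called higher. With a mean of at least 5 RPKM only 5 members could be tested, and 4 were called in each, beside 1250 and 763 of 6853 genes. Leaving out single libraries gave 32 to 35 calls against Diabetic and 34 against Control in each case, and voom gave 35 and 34. Of all 12594 genes 1438 to 3695 and 1567 to 2350 were called higher on leaving out single libraries, and 3208 and 2298 with voom. In Diabetic against Control the 1 call (*Thy1*) became 0 with a mean of at least 5 RPKM and 0 with the replicate block, 3 without the 3 libraries low in nuclear RNAs (other genes than *Thy1*), and leaving out single libraries gave 0 to 17. The *Cd40lg* difference there ranged from 0 to 0.59 on leaving out single libraries, and was 0 without Diabetic 2, which held all its Diabetic reads.

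Deviations from the genotype means correlated at -0.26 to 0.37 between same-numbered libraries and at -0.57 to 0.51 between the others. The deviations of the 2 Rescue libraries mirror each other, so these values cannot decide whether the numbers pair the libraries. With the replicate block, 4 uncalled differences in Diabetic against Control turned negative: *Cd247* (-0.0281), *Themis* (-0.022), *Ubash3a* (-0.0025) and *Ctla4* (-0.18). Over all genes, calls in Diabetic against Control went from 500 to 49 with the block, 763 in the 2-group fit, 325 without a filter and 18 to 1031 on leaving out single libraries. In Rescue against Diabetic they went from 3752 to 2274 in the 2-group fit, 1788 at a mean of 5 RPKM and 1580 to 4197 on leaving out libraries. In Rescue against Control they went from 2958 to 1313 with the block, 1160 at a mean of 5 RPKM and 1729 to 4027 on leaving out libraries. Scaling moved the split of higher and lower calls in Diabetic against Control from 193 and 307 to 378 and 209 (TMM) or 394 and 194 (median of ratios), in Rescue against Diabetic from 3022 and 730 to 2047 and 1781 or 2124 and 1674, and in Rescue against Control from 2268 and 690 to 2008 and 1516 or 2078 and 1269. Count models (negative binomial) were left out because the values are RPKM. With 2 Rescue libraries and few reads per gene in Control, the sizes of the largest ratios are imprecise.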
